A study of Mus musculus with 66 samples.

Results

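The regions described here were the enriched intervals (islands) of 2 histone marks, H3K9me3 and H3K36me3, that overlapped clusters of mouse odorant receptor genes. Clusters were built from the 1087 protein-coding genes on chromosomes 1 to 19 whose symbol is Olfr followed by digits (GENCODE vM21, GRCm38). Consecutive gene bodies 100 kb or less apart were joined, and groups of 5 or more genes were kept. This gave 40 clusters on 14 chromosomes, with 1018 Olfr genes and 24.9 Mb, which is 1.04% of the autosomal sequence. A cluster held 5 to 211 genes (median 14) and was 82.5 to 4714 kb long (median 365 kb). Of the 2049788 islands listed in the 44 libraries, 46187 overlapped a cluster: 33699 of 1239443 for H3K9me3 and 12488 of 810345 for H3K36me3. Clusters are called by chromosome with a letter in genomic order along it, so chr2C is the third cluster of chromosome 2.

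Prefrontal cortex came from adolescent mice of the inbred strain DBA/2J. Males and females received either water or ethanol at 4 g/kg (25% w/v in water) by gavage, 2 days on and 2 days off, from postnatal day 29 to 42, and were killed 24 h after the final dose. A sample pooled 3 mice of the same sex and treatment, and there were 5 water pools and 6 ethanol pools of each sex, 22 in all. From each pool, chromatin was precipitated with an antibody to H3K9me3 (abcam ab8898) and with one to H3K36me3 (Active Motif), with 8 technical precipitations combined per antibody, and a portion was kept as input. Pools of 3 mice do not resolve single animals, and in bulk tissue fewer cells carrying a mark cannot be told apart from less of the mark in each cell.

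Odorant receptors are G protein-coupled receptors of olfactory sensory neurons, which couple through the G protein subunit encoded by Gnal to the adenylyl cyclase encoded by Adcy3. Each of these neurons expresses a single receptor allele, and the remaining receptor genes are held silent in compact chromatin marked by H3K9me3 and H4K20me3. Class I receptors, related to those of fish, lie together on chromosome 7, and class II receptors fill all other clusters. H3K9me3 is a mark of constitutive heterochromatin and of silenced repeats, written by enzymes such as SETDB1 and SUV39H1, and bound by the HP1 proteins. H3K36me3 is laid down behind elongating RNA polymerase II and lies over the bodies of transcribed genes. The vomeronasal receptor genes Vmn1r and Vmn2r, also silent outside the olfactory system, served as the most similar gene families.

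Most of the sequence under shared H3K9me3 islands was annotated as repeats, and 5 region centres and 2 promoters are printed to show how far single stretches vary in this, from 24 to 296 masked bases of 300. Each region is a stretch covered in at least 11 of the 22 libraries by islands that pass the peak caller's false discovery rate (FDR) at 0.01 or less. The first set comes from the 196 cluster regions found in 22 of 22 libraries. It holds the centres of the 3 with the highest ratio of ChIP to input reads. Such regions need not be wholly repeats. The centres are chr19:13265251-13265550, chr2:36581551-36581850 and chr17:37705851-37706150, plus strand, from the GRCm38.p6 reference genome. This reference is of a strain other than DBA/2J, and the effect of strain differences on sequence and coverage was not tested. Capitals mark bases that the reference soft-masks as repeats, here 24, 257 and 288 of 300 bases.
Region near Olfr1463: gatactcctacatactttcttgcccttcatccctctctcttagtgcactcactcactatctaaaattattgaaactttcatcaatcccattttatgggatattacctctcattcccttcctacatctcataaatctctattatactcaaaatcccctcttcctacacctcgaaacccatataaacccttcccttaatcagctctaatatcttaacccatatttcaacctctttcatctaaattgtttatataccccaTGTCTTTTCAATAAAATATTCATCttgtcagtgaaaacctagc
Region near Olfr344: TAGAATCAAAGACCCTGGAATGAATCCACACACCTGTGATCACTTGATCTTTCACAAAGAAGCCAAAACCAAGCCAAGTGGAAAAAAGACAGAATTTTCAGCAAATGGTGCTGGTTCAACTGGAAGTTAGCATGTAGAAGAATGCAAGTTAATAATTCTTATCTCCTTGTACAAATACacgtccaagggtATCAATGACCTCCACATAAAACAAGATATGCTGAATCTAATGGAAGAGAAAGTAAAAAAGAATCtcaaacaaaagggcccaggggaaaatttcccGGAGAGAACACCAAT
Region near Olfr119: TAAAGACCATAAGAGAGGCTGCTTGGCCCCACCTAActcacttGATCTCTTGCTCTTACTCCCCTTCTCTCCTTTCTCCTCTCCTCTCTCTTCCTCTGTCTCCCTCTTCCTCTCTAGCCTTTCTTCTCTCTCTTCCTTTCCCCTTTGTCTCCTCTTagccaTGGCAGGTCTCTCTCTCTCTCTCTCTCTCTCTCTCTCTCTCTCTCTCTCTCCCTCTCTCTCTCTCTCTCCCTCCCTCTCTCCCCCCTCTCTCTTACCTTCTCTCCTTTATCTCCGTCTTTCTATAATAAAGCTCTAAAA

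The second set holds the centres of the 2 longest H3K9me3 regions, of 25.2 and 21.2 kb, at chr17:38238051-38238350 and chr2:36951251-36951550 on the plus strand of GRCm38.p6. The repeat-masked bases, in capitals, number 92 and 296 of 300, while over the whole regions the masked share was 93.7% near Olfr138 and 97.8% near Olfr356.
Region near Olfr138: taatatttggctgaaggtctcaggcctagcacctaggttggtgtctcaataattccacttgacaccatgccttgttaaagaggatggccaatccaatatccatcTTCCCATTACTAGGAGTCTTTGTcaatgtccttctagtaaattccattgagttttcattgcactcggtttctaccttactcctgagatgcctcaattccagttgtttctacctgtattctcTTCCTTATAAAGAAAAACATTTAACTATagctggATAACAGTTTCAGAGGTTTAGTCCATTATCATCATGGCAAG
Region near Olfr356: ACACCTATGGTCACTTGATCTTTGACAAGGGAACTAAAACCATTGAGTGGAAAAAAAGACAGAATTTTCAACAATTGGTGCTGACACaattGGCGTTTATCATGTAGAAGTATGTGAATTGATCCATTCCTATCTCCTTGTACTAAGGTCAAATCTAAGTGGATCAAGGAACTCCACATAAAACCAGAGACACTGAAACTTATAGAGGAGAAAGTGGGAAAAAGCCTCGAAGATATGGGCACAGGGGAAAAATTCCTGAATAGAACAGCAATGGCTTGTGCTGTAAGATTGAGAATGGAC

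The third set holds the only 2 of 862 Olfr promoters that overlapped an H3K9me3 island in 11 or more libraries. Both genes lie on chromosome 11, Olfr384 in chr11D and Olfr390 in chr11E. The windows run from 250 bases before to 50 bases after the start in the RefSeq promoter table (GRCm38.p6), at chr11:73602332-73602631 and chr11:73786690-73786989, plus strand. In both, the 50 bases after the start open with ATG, so the start used may be that of the coding sequence. Whether these windows hold the site where transcription starts was not tested. Repeat-masked bases, in capitals, make up 84 and 153 of 300 bases.
Olfr384 promoter: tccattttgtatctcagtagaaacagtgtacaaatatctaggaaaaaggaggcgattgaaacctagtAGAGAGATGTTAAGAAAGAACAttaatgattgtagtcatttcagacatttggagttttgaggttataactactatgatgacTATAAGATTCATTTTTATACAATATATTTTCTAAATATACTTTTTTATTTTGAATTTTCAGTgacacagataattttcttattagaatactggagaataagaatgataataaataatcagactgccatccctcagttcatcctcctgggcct
Olfr390 promoter: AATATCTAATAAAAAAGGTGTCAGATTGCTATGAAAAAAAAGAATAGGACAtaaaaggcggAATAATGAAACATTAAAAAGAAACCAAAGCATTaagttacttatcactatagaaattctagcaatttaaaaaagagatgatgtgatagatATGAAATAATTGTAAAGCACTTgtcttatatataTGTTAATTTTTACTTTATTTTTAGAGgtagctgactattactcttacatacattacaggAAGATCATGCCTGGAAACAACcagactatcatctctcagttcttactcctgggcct

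The libraries held 41364 to 72481 listed H3K9me3 islands with 5734011 to 14235444 ChIP reads in them, and 19618 to 61911 listed H3K36me3 islands with 1703000 to 4802640 reads. Between 961 and 2123 H3K9me3 islands and 294 to 757 H3K36me3 islands per library overlapped Olfr clusters. The lists include islands at any FDR. At FDR 0.01 or less, 12804 to 62374 H3K9me3 islands remained per library, fewest in female water replicate 2 and most in male ethanol replicate 4, and 2248 to 28294 H3K36me3 islands remained, fewest in male ethanol replicate 6, which kept 7.76% of its list. These 3 libraries stood apart in depth or in islands kept, and the effects that changed direction or crossed an unadjusted p of 0.05 without one of them are given both ways.

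H3K9me3 islands covered a larger share of the Olfr clusters than of the other autosomal sequence in every pool. Islands at FDR 0.01 or less covered 18.7% ± 4.25 (SD, n = 22) of the clusters against 5.01% ± 1.18 of the rest of chromosomes 1 to 19. The lowest library was female water replicate 2 with 5.33%, the median was 19.1%, and the highest was male ethanol replicate 4 with 27.7%. Coverage of the clusters was 3.47 to 4.07 times that of the rest within each pool. The difference of 13.7 percentage points had the same direction in 22 of 22 pools (sign-flip permutation test over pools, two-sided, p = 1e-05, adjusted p = 2e-05 over 12 such comparisons, the smallest p that 100000 resamples can give). It was 13.4 points without male ethanol replicate 4 and 14.2 points without female water replicate 2.

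Vomeronasal receptor clusters carried still more H3K9me3. Coverage was 24.2% ± 4.33 over 15 Vmn1r clusters (153 genes, 5.18 Mb) and 31.6% ± 6.04 over 6 Vmn2r clusters (39 genes, 2.58 Mb), built by the same joining rule. Olfr clusters were below Vmn1r clusters by 5.49 points and below Vmn2r clusters by 12.9 points, each in 22 of 22 pools (permutation test, both p = 1e-05, adjusted p = 2e-05). On average the order was thus Vmn2r, Vmn1r, Olfr and the remaining autosomal sequence. This and the other permutation tests between kinds of sequence measure how far the pools agree. They do not measure the spread among clusters, which were the same in every pool.

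The strength of the islands followed a similar order on another scale, the log2 ratio of ChIP to input reads summed over all listed islands. Within each pool this ratio was 0.27 ± 0.04 higher on the log2 scale in Olfr clusters than in the rest (range 0.20 to 0.34, 22 of 22 pools, permutation p = 1e-05, adjusted p = 2e-05). With islands at FDR 0.01 or less only, the difference was 0.10 and was positive in 21 of 22 pools, with -0.02 in female water replicate 2. Olfr islands were 0.08 lower than Vmn1r islands and 0.23 lower than Vmn2r islands on the same scale, each in 22 of 22 pools (permutation p = 1e-05, adjusted p = 2e-05). Islands in the clusters also held fewer input reads per kb, 20.8 ± 1.60 against 29.9 ± 2.72 in the rest, in 22 of 22 libraries. Island lengths differed little, with a mean over libraries of the median length of 2.73 kb in the clusters and 2.64 kb elsewhere, and the longest Olfr island measured 29.2 kb, in male ethanol replicate 4.

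**Figure D1:**
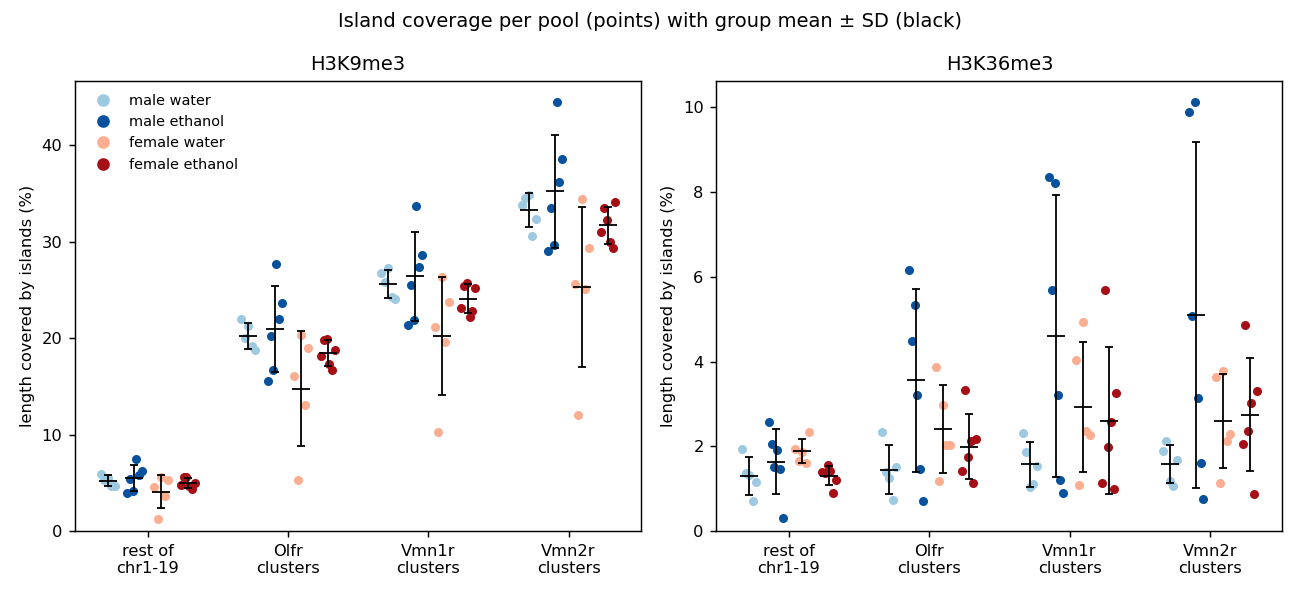
Share of the Olfr cluster sequence covered by islands at FDR 0.01 or less (percent, vertical axis) in each of the 22 pools, by sex and treatment, for H3K9me3 and H3K36me3. H3K9me3 coverage runs from 5.33% to 27.7% and H3K36me3 coverage from 0.71% to 6.15%, and the ethanol and water pools of each sex overlap for both marks.

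H3K36me3 islands were scarce over the clusters. They covered 2.4% ± 1.47 (SD, n = 22; range 0.71 to 6.15, median 2.03) of the clusters and 1.53% ± 0.51 of the rest. The difference of 0.865 points was positive in 19 of 22 pools (permutation p = 0.00032, adjusted p = 0.000427). It did not hold for the strongest islands, since at FDR 1e-05 or less it was -0.0297 points (permutation p = 0.772). Coverage was 0.596 points lower than over Vmn1r clusters (2.99% ± 2.26, lower in 16 of 22 pools, permutation p = 0.00249, adjusted p = 0.00272) and 0.694 points lower than over Vmn2r clusters (3.09% ± 2.53, lower in 16 of 22 pools, permutation p = 0.00172, adjusted p = 0.00206). The log2 ratio to input was 0.11 above the rest in all listed islands (18 of 22 pools, permutation p = 7e-05, adjusted p = 0.000105) but -0.00393 at FDR 0.01 or less (permutation p = 0.825). Against Vmn1r clusters this log2 difference was 0.01 (positive in 12 of 22 pools, permutation p = 0.388), and against Vmn2r clusters it was -0.05 (negative in 20 of 22 pools, permutation p = 2e-05, adjusted p = 3.43e-05).

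H3K9me3 in the clusters lay mainly between the genes. Islands at FDR 0.01 or less covered 23.9% ± 5.30 of the sequence between Olfr genes and 4.48% ± 1.39 of the Olfr gene bodies (SD, n = 22). The ratio of the former to the latter was 4.03 to 6.99, above 1 in 22 of 22 libraries. Within 500 bp of annotated gene starts the coverage was 1.32% ± 0.70. H3K36me3 showed the same arrangement, with 3.05% ± 1.90 between genes and 0.575% ± 0.33 over gene bodies, higher between genes in 22 of 22 libraries. Over all autosomes, 30.7% ± 5.93 of the length of listed H3K36me3 islands lay in protein-coding gene bodies. The Olfr gene bodies span 6.58 Mb of the 24.9 Mb.

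Seen across the cluster boundaries, H3K9me3 coverage was 6.51% at 200 to 190 kb outside the outermost genes, 9.38% at 40 to 30 kb outside, and 16.6% ± 3.57 in the last 10 kb before the first gene. It was 6.48% ± 1.93 in the first 10 kb inside, the bin that holds the outermost gene itself, 19.6% ± 4.45 in the next bin, and 15.3% to 21.1% deeper in. H3K36me3 followed the same course at a lower level, from 1.40% far outside to 2.69% next to the boundary, 1.18% in the first inner bin and 2.79% in the second. The rise thus began outside the outermost gene for both marks.

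**Figure D2:**
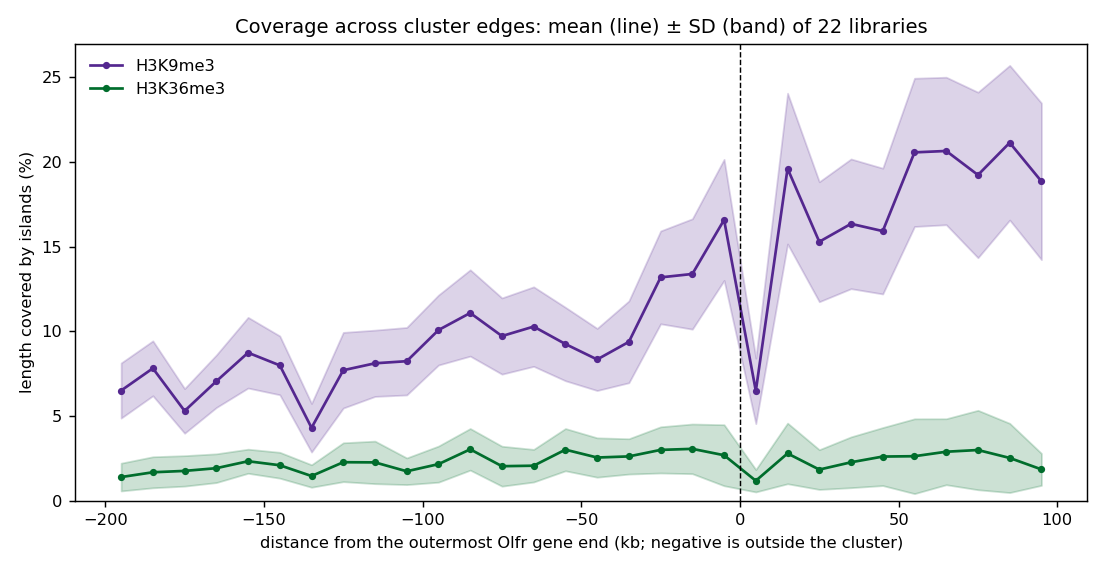
Percent of sequence covered by islands at FDR 0.01 or less (vertical axis) by distance from the cluster boundary in kb (horizontal axis, negative outside, 10 kb bins) over the 80 boundaries of 40 clusters, mean and SD over 22 libraries. H3K9me3 coverage reaches 16.6% in the last 10 kb outside, drops to 6.48% in the bin with the outermost gene and is 19.6% in the next bin.

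The clusters differed widely among themselves in H3K9me3, and did so in the same way in each library. Mean coverage ran from 0.413% to 48.0% with a median of 14.4% over 40 clusters. The 3 highest were chr2A (Olfr338 to Olfr366, 26 genes, chr2:36373519-37224506) at 48.0% ± 7.79, chr9B (Olfr843 to Olfr855, 11 genes, chr9:19242956-19586030) at 45.1% ± 7.69 and chr9A (Olfr24 to Olfr837, 9 genes, chr9:18751507-19140641) at 39.6% ± 7.64. The first pair held the top 2 ranks in all 22 libraries, and chr9A ranked 3 to 5. The lowest were chr1C (Olfr433 to Olfr419, 9 genes, chr1:174040705-174252061) at 0.413% ± 0.52, with no island in 12 libraries, chr14B (Olfr1513 to Olfr1507, 7 genes) at 2.98% ± 2.03 and chr11B (Olfr1378 to Olfr1375, 5 genes) at 4.25% ± 1.64. In 31 of 40 clusters islands were present in every library, and 37 clusters had a mean above that of the rest of chromosomes 1 to 19. Apart from chr14B and chr1C, neighbours in the order of clusters differed by less than 1 SD of the higher cluster.

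The most covered clusters were not among the 6 largest, although over the 40 clusters coverage had a Spearman correlation of 0.328 with gene number and 0.394 with length. Coverage of the 6 clusters with the most genes was 13.4% ± 3.52 for chr2C (Olfr996 to Olfr1272, 211 genes, 4.71 Mb), 14.5% ± 3.51 for chr9D (93 genes), 10.7% ± 3.07 for chr7C (91 genes, class I), 14.8% ± 3.76 for chr10B (58 genes), 24.0% ± 5.88 for chr17A (46 genes) and 28.6% ± 5.90 for chr7G (42 genes). At the threshold of the cluster definition, the 3 clusters of exactly 5 genes had means of 4.25% to 19.7%, and the 6 groups of exactly 4 genes (24 genes, 0.694 Mb), which were left out, had 5.14% ± 1.49 together. For H3K36me3 the 3 clusters of 5 genes had means of 1.04% to 6.82% and the groups of 4 genes 2.56% ± 1.11.

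For H3K36me3 the highest clusters were chr6C (Olfr211 to Olfr215, 5 genes) at 6.82% ± 4.50, chr2A at 5.57% ± 4.29 and chr9B at 5.28% ± 4.29, and the lowest were chr1C at 0.0559%, chr14B at 0.44% and chr13A (Olfr1366 to Olfr1359, 8 genes) at 0.80% ± 1.04. Here 14 of 40 clusters had islands in every library, and 30 had a mean above that of the rest. The order of the clusters was similar between libraries for H3K9me3, with a median Spearman correlation of 0.957 over the 231 pairs of libraries (0.758 to 0.986), and less so for H3K36me3 (median 0.409, -0.061 to 0.799). These correlations run over 40 clusters that share the same sequence in every library and describe the order only.

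**Figure D3:**
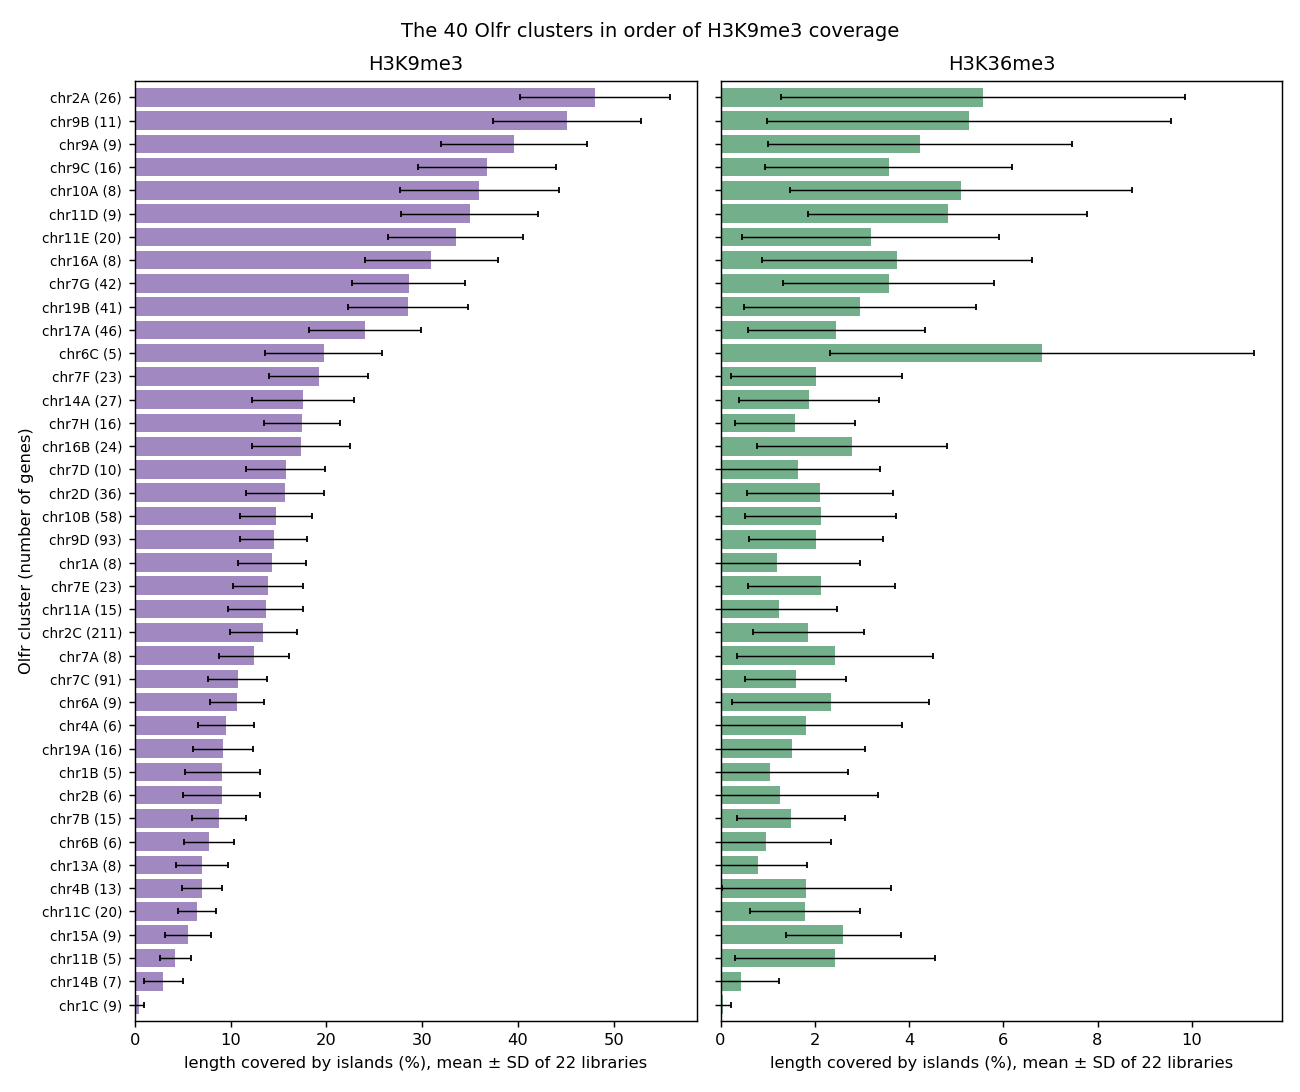
Mean percent of each Olfr cluster covered by islands at FDR 0.01 or less for H3K9me3 and H3K36me3, one row per cluster, with the SD over 22 libraries (bars cut at 0). chr2A and chr9B lead for H3K9me3 with 48.0% and 45.1%, and chr1C is lowest with 0.413%.

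The repeat content of a cluster went with its coverage. Over the 40 clusters the soft-masked share of the sequence had a Spearman correlation of 0.826 with mean H3K9me3 coverage and 0.640 with H3K36me3 coverage, while gene density had -0.461 and GC content -0.223 with H3K9me3 (n = 40 clusters, a description, since clusters share libraries and reads). The 8 clusters with over 30% H3K9me3 coverage were 48.5% to 59.7% masked, and the 13 with under 10% were 26.7% to 45.2% masked. The coverages by the 2 marks correlated over clusters with a Spearman value of 0.758, and both marks share one input library per pool.

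**Figure D4:**
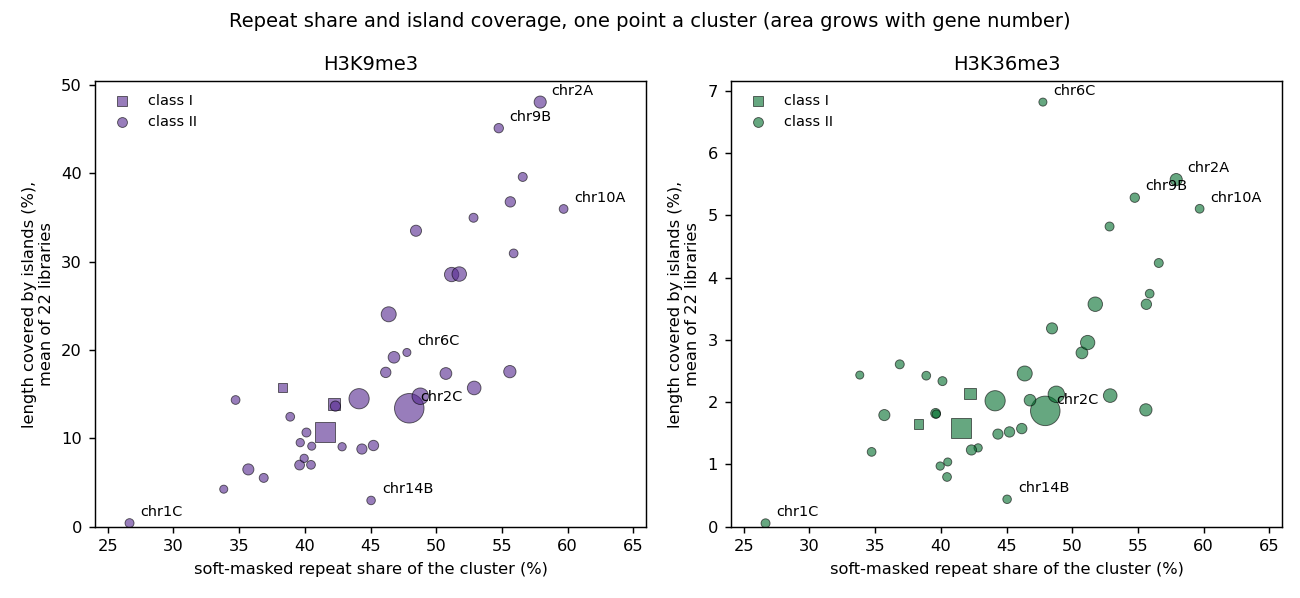
Mean island coverage (percent, vertical axis) against soft-masked repeat share of the cluster sequence (percent, horizontal axis), one point per Olfr cluster, 40 clusters, for H3K9me3 and H3K36me3. H3K9me3 coverage is over 30% only in clusters that are at least 48.5% masked.

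Within the clusters the same held base by base. Sequence under H3K9me3 islands of 11 or more libraries (4.63 Mb, 18.6% of the clusters) was 88.0% masked, sequence under islands of 1 to 10 libraries was 56.8% masked, and sequence never under an island (14.4 Mb, 58.0%) was 30.7% masked. The rest of chromosomes 1 to 19 gave 89.9% and 27.2% for the first and last of these. For H3K36me3, 0.073 Mb lay under islands of 11 or more libraries and was 97.1% masked, and sequence under no island was 39.7% masked. Clusters as a whole were 47.5% masked, with 38.5% GC and 5.35 CpG per kb. Repeats take part in read mapping as well as in chromatin, and only reads with a single location were kept for H3K9me3, so the effect of mappability on these shares was not tested.

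At FDR 0.01 or less, 1354 H3K9me3 regions were shared by 11 or more libraries, in 39 of 40 clusters, and 196 were present in all 22. Their median length was 2.8 kb. Only 100 of them (7.39%) overlapped an Olfr gene body, and the others lay a median of 5.35 kb from the nearest Olfr gene. The region near Olfr1463 (chr19:13264001-13266800) had a log2 ratio to input 0.77 ± 0.18 above the mean level of islands outside the clusters, the region near Olfr344 (chr2:36578001-36585400) 0.73 ± 0.21 and the region near Olfr119 (chr17:37704601-37707400) 0.72 ± 0.18. These are the regions whose centres are printed above, and they were 19.9%, 64.1% and 52.2% masked. The longest regions had lower ratios, 0.42 near Olfr138 (chr17:38225601-38250800), 0.38 near Olfr356 (chr2:36940801-36962000) and 0.37 near Olfr853 (chr9:19543601-19561000), with 93.7%, 97.8% and 94.3% masked. Regions with the most input reads per kb were wholly masked and had almost no excess, with 33.9 input reads per kb and a log2 value of 0.03 near Olfr635, 33.8 and 0.14 near Olfr1189, and 31.3 and 0.05 near Olfr688. H3K36me3 gave 34 such regions in 16 clusters, 3 of them overlapping an Olfr gene and none present in all 22 libraries. The H3K36me3 region found in the most libraries, 18, lay near Olfr285 (chr15:98289201-98291000). Its log2 value was 0.74 ± 0.31, and it was 39.6% masked.

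Most receptor genes themselves carried neither mark. At FDR 0.01 or less, 604 of 1018 Olfr gene bodies (59.3%) overlapped no island of either mark in any library, and 588 did so when all listed islands were counted. The share of other protein-coding genes free of both marks was not counted. At FDR 0.01 or less, 646 (63.5%) overlapped no H3K9me3 island in any library, 87 (8.55%) overlapped one in 11 or more libraries, and 10 did so in all 22. The corresponding share in 11 or more libraries was 26.1% for Vmn1r genes (54 of 207), 86.6% for Vmn2r genes (103 of 119) and 11.4% for other protein-coding genes (2247 of 19789). By other measures Olfr genes were above other protein-coding genes, with 63.5% against 77.0% free of H3K9me3 in all libraries and a mean coverage per gene of 2.53% against 1.60%. H3K36me3 islands were absent from 867 Olfr genes (85.2%) in all libraries and present in 11 or more libraries over 5. Of other protein-coding genes, 40.9% had no H3K36me3 island in any library and 17.1% had one in 11 or more. These shares were not matched for gene length. Genes with an H3K9me3 island in 11 or more libraries had a median length of 10.4 kb and were 36.1% masked on average, against 5.47 kb and 19.2% for genes with none.

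The receptor gene with the highest H3K9me3 coverage was Olfr401 (chr11:74113712-74122941, plus strand, in chr11E), covered over 59.0% ± 9.84 of its body with islands in 22 of 22 libraries and a range of 32.5% to 75.2%. Olfr344 followed with 47.3% ± 16.7, Olfr872 with 46.8% ± 9.99, Olfr18 with 42.0% ± 9.08, Olfr164 with 41.7% ± 8.08 and the class I receptor gene Olfr635 with 41.6% ± 16.6. The lead of Olfr401 exceeded 1 SD of both genes against each of the others except Olfr344, and the remaining neighbours did not differ beyond their spread. For H3K36me3 the leading genes were Olfr165 with 15% ± 13.3 (islands in 15 libraries), Olfr282 with 13.4% ± 22.0 (8 libraries), Olfr362 with 12.3% ± 13.1 (13 libraries), Olfr344 with 10.4% ± 16.3 (7 libraries), Olfr54 with 10.2% ± 9.92 (13 libraries) and Olfr412 with 8.16% ± 17.8 (6 libraries). For each of these the SD was close to the mean or above it.

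Few Olfr promoter windows of the RefSeq table overlapped either mark, and the share over all promoters was not counted. In the 2 printed windows the start falls on an ATG, so the values below describe the windows, which may not hold the promoters. Of the 1018 genes, 862 had an entry in the RefSeq promoter table. H3K9me3 islands overlapped 84 of these promoters in at least 1 library and 2 in 11 or more, the Olfr384 and Olfr390 promoters shown above, each in 14 libraries. The median over libraries was 1.04% of promoters, with a range of 0 to 4.06%. H3K36me3 islands overlapped 22 promoters in at least 1 library. The homeodomain motif TAATTA, of the kind bound by LHX2, was searched on both strands and was found in 167 of the 862 Olfr promoters (19.4%), against 5.31% of all 27025 promoters of that length. It does not occur in the 2 promoters printed above, which says only that these letters are not in those windows.

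Over their summed sequence, class I clusters carried less H3K9me3 than class II clusters, given here without a test. The 3 class I clusters on chromosome 7 (chr7C, chr7D and chr7E, 124 genes) were covered over 11.7% ± 3.16 and class II clusters over 19.5% ± 4.37, with class II higher in 22 of 22 libraries. The means of the single class I clusters, 10.7%, 15.7% and 13.9%, lay inside the range of the class II clusters, 0.413% to 48.0%. H3K36me3 coverage was 1.71% ± 1.04 and 2.47% ± 1.53, with class II higher in 18 of 22. Islands in 11 or more libraries lay over 6 of 124 class I and 81 of 894 class II gene bodies. The 250 Olfr pseudogenes inside the clusters were covered over 5.45% ± 1.86 by H3K9me3, against 4.47% ± 1.39 of the genes, and were higher in 18 of 22 libraries. For H3K36me3 the values were 0.955% ± 0.64 and 0.570% ± 0.32, with pseudogenes higher in 16 of 22.

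A larger share of H3K36me3 sequence and a smaller share of H3K9me3 sequence carried the other mark inside the clusters than outside. Of the H3K36me3 island length in clusters, 85.7% ± 4.91 (range 76.2 to 93.9) lay under a listed H3K9me3 island of the same pool, against 64.6% ± 8.28 in the rest, higher in 22 of 22 pools. At FDR 0.01 or less the shares were 74.7% and 45.6%, again higher in 22 of 22. Of the H3K9me3 island length, 30.5% ± 8.43 lay under H3K36me3 in clusters and 40.9% ± 7.96 in the rest, lower in 22 of 22 pools, and at FDR 0.01 or less the shares were 9.95% and 14.5%, lower in 21 of 22. The marks are not independent measurements in these lists, because a pool's 2 libraries were compared with the same input. Islands with identical boundaries for both marks, 389 to 1859 per pool, had equal input read counts in all 22 pools.

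Genes that act on or with the receptors were also checked for H3K36me3. Of 19 such genes, 4 had an H3K36me3 island in 11 or more libraries, where 17.1% of other protein-coding genes had one: Ehmt1 (18 libraries, 3.87% ± 3.11 of the gene) and Ehmt2 (13 libraries, 22.2% ± 22.9), which encode H3K9 methyltransferases, Trim66 (15 libraries, 4.84% ± 6.44), which encodes a chromatin reader, and Lbr (14 libraries, 8.89% ± 8.52), an inner nuclear membrane protein whose absence lets receptor genes gather in olfactory sensory neurons. Setdb1, an H3K9 methyltransferase, had islands in 10 libraries. Ebf1, which encodes a transcription factor of these neurons, carried an H3K9me3 island in 12 libraries and was the only one of the 19 to do so in 11 or more. None of the 15 trace amine receptor genes (Taar), which also serve olfaction, had an island of either mark at FDR 0.01 or less in any library.

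Marker genes of cell types gave few islands, to be read against the same 17.1%. In 11 or more libraries H3K36me3 islands lay over 1 of 7 neuronal markers (Rbfox3, 11 libraries), 0 of 6 oligodendrocyte lineage markers, 0 of 4 astrocyte markers, 1 of 3 microglia markers (Cx3cr1, 11 libraries) and 1 of 8 olfactory sensory neuron markers (Ano2, 17 libraries, which also carried H3K9me3 in 21 libraries). Omp, Gng13, Rtp1 and Rtp2 of this last list had no H3K36me3 island in any library, while Stoml3 had one in 10, Gnal in 6 and Adcy3 in 5. Among markers of cells of the cortex, Mog, Mag, Olig1, Pdgfra, Gfap and Csf1r also had none. These counts do not tell the cell types of the cortex apart, and the part of depth in this was not tested.

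Ethanol and water pools were compared first on each library's totals for the clusters, separately in males and females, with exact permutation tests over the 462 splits of 6 and 5 pools (two-sided, smallest possible p 0.00216) and adjustment over 12 comparisons. None reached an adjusted p of 0.05. In males, H3K9me3 coverage was 22.0, 20.1, 21.3, 19.2 and 18.8% in the water pools and 15.6, 20.2, 16.7, 27.7, 22.0 and 23.6% in the ethanol pools. The ethanol pools spread on both sides of the water pools, and the means were 20.3% ± 1.34 and 21% ± 4.48 (exact p = 0.758, adjusted p = 0.826). The difference was -0.635 points without male ethanol replicate 4. Relative to the rest of the autosomes, the log2 ratio to input of Olfr islands was 0.30 ± 0.02 with ethanol and 0.25 ± 0.04 with water (difference 0.05, exact p = 0.00866, adjusted p = 0.104), and with islands at FDR 0.01 or less the difference was -0.00473. Reads in Olfr islands, per 1000000 reads in all islands of the library (RPM), numbered 27234 ± 1069 with ethanol and 26938 ± 402 with water (exact p = 0.604, adjusted p = 0.725), a difference of 296 that was -44.2 without male ethanol replicate 4.

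In females, H3K9me3 coverage was 16.1, 5.33, 20.4, 13.1 and 19% with water and 18.2, 19.8, 19.9, 17.3, 16.8 and 18.8% with ethanol. Water replicate 2 lay far below the others, and the ethanol pools fell inside the range of the water pools. The means were 14.8% ± 5.98 and 18.5% ± 1.31 (difference 3.69, exact p = 0.167, adjusted p = 0.333), and the difference was 1.32 without female water replicate 2. The log2 ratio relative to the rest was 0.26 ± 0.04 in both groups (exact p = 0.916). The RPM of Olfr islands was 22954 ± 451 with ethanol and 21531 ± 1399 with water (exact p = 0.0325, adjusted p = 0.166), a difference of 1423 that was 901 without female water replicate 2 (exact p = 0.0714, adjusted p = 0.171).

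H3K36me3 coverage in males was 2.35, 1.39, 1.26, 0.739 and 1.53% with water and 6.15, 4.49, 5.33, 3.21, 1.48 and 0.71% with ethanol. In 4 of 6 ethanol pools it was above all water pools, and in male ethanol replicate 6, which kept few islands, it was below them. The means were 1.45% ± 0.58 and 3.56% ± 2.16, 2.45 times higher with ethanol (exact p = 0.0693, adjusted p = 0.166). The size of this ratio depended on the FDR threshold, since over all listed islands the means were 6.31% ± 0.77 and 8.38% ± 2.56, 1.33 times higher, and at FDR 1e-05 or less they were 0.209% ± 0.13 and 0.927% ± 0.84, 4.42 times higher. Without male ethanol replicate 6 the difference was 2.68 points (exact p = 0.0238, adjusted p = 0.130), against 2.11 with it. The RPM of Olfr islands was 10954, 12263, 11758, 12925 and 13590 with water and 18833, 16916, 19777, 10477, 12799 and 17069 with ethanol, with 4 of 6 ethanol pools above all water pools. Their means differed by 1.30 times (15978 ± 3606 against 12298 ± 1020, exact p = 0.0584, adjusted p = 0.166). The log2 ratio relative to the rest was 0.19 ± 0.14 with ethanol and 0.03 ± 0.10 with water (exact p = 0.0563, adjusted p = 0.166). Without male ethanol replicate 4 the RPM difference was 4781 and the log2 difference 0.21 (exact p = 0.0238 and adjusted p = 0.130 for each), so each of the 3 measures passed an unadjusted threshold of 0.05 without one of these libraries but not without the other, and none passed after adjustment.

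In females, H3K36me3 coverage was 3.88, 1.19, 2.97, 2.03 and 2.03% with water and 1.42, 3.34, 1.76, 2.14, 1.14 and 2.17% with ethanol. The groups overlapped throughout, with means of 2.42% ± 1.03 and 1.99% ± 0.77 (exact p = 0.459, adjusted p = 0.615). The difference of -0.425 points was 0.314 with all listed islands, -0.733 without female water replicate 2 and -0.0593 without female water replicate 1, the lowest and highest values with 1 pool left out. The RPM was 12821 ± 1948 with ethanol and 11776 ± 2168 with water (exact p = 0.407, adjusted p = 0.615), and the log2 ratio relative to the rest was 0.12 ± 0.06 and 0.09 ± 0.07 (exact p = 0.461). The ethanol effect on H3K36me3 coverage was 2.53 points lower in females than in males (exact permutation within sexes, p = 0.0449, adjusted p = 0.269 over 6 such tests), and the other 5 differences between the sexes had adjusted p of 0.316 to 0.401.

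For each cluster, reads of listed islands were then summed and tested with edgeR together with 500 kb bins of the rest. In male H3K36me3 libraries, 11 of 39 clusters tested (28.2%) passed an unadjusted p of 0.05, all higher with ethanol, where 665 of all 4742 clusters and bins passed, 7.78% as higher and 6.24% as lower. These were chr19A, chr11E, chr2C, chr9A, chr10B, chr1A, chr16B, chr17A, chr9D, chr19B and chr7C, with log2 fold changes of 0.28 to 0.75. None passed by edgeR's adjusted p, which was 0.287 to 0.355 for these clusters, and DESeq2 called 2 by adjusted p, chr19A (0.0207) and chr11E (0.0338), where it called 92 of all 4887 clusters and bins (1.88%). Of the 39 clusters, 34 had a fold change above 0 and the median log2 value was 0.35, against -0.02 over all clusters and bins.

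The cluster chr19A (chr19:12031787-12423569, 16 genes) had 135, 106, 115, 131 and 166 counts per 1000000 (CPM) in the male water pools and 187, 224, 257, 204, 160 and 264 in the ethanol pools. All but 1 ethanol pool exceeded the highest water pool. Its log2 fold change was 0.73 ± 0.18 (edgeR, SE, adjusted p = 0.287). chr11E had 536 ± 96.3 CPM with ethanol and 378 ± 40.2 with water (0.50 ± 0.14), chr2C 2529 ± 364 and 1891 ± 214 (0.42 ± 0.14), chr9A 380 ± 93.7 and 255 ± 60.3 (0.57 ± 0.19) and chr10B 868 ± 197 and 646 ± 47.2 (0.43 ± 0.16). All 5 shared the direction, and in each the groups overlapped.

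The input moved with these values. Summed over the same islands, input reads had a median log2 fold change of 0.29 over the 39 clusters, 7 of the 11 called clusters had an input p of 0.05 or less, and across clusters the ChIP and input fold changes had a Spearman value of 0.961. The ratio of ChIP to input differed by 0.02 to 0.12 on the log2 scale in the 11 clusters, with 0 at p 0.05 by limma. The length covered by all listed islands was larger with ethanol, 2.08 ± 0.64 Mb against 1.57 ± 0.19 Mb over all clusters, while ChIP reads per covered kb were 26.8 ± 6.89 and 27.8 ± 4.35. In chr19A the covered length was 27.8 kb with ethanol and 15.2 kb with water. The 11 calls became 7 without male water replicate 1 or male ethanol replicate 1 and 18 without male ethanol replicate 5. With islands at FDR 0.01 or less, 1 of 37 clusters passed (2.70%), where 29 of all 4609 clusters and bins did (0.629%).

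**Figure D5:**
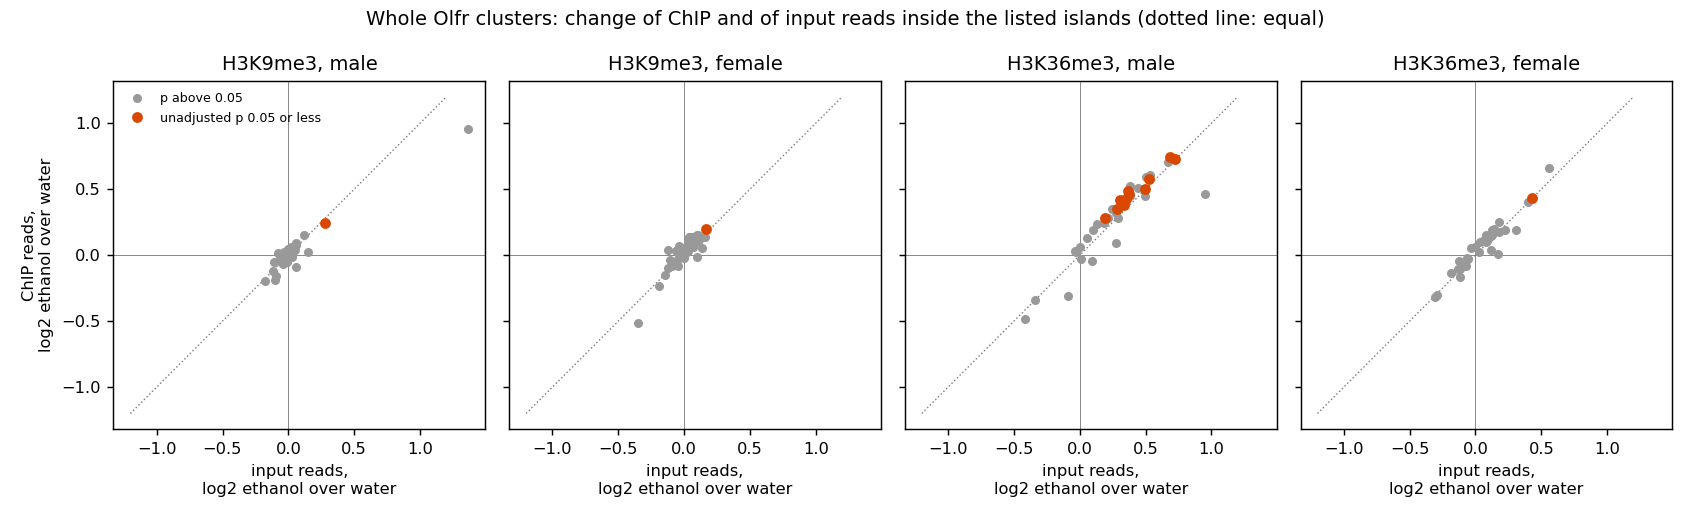
log2 fold change of ethanol over water in ChIP reads (vertical axis) against that in input reads of the same islands (horizontal axis), one point per Olfr cluster, by mark and sex. In male H3K36me3 libraries 34 of 39 clusters lie above 0 on the ChIP axis, with a Spearman value of 0.961 between the axes.

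In the other cluster comparisons few clusters passed. For male H3K9me3 1 of 40 did, chr1B (0.25 ± 0.10, 101 ± 11.1 against 85.4 ± 10.3 CPM), where 2.94% of all clusters and bins passed. For female H3K9me3 1 of 40 did, chr14A (0.20 ± 0.09, 847 ± 39.5 against 738 ± 116 CPM), where 4.87% passed. For female H3K36me3 1 of 38 did, chr9C (0.44 ± 0.19, 462 ± 132 against 341 ± 45.5 CPM), where 1.68% passed. Input reads changed by 0.28 in chr1B, 0.17 in chr14A and 0.43 in chr9C, and the ratio of ChIP to input by -0.03, 0.02 and 0.0017 on the log2 scale. The covered length was 1.28, 1.24 and 1.35 times larger with ethanol, and ChIP reads per covered kb were 1.02, 1.03 and 0.998 times those with water. The 3 calls held in 5, 3 and 5 of the 11 fits that left out a pool. By edgeR's adjusted p, and by that of DESeq2, 0 clusters passed in these comparisons.

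Single regions shared by the libraries were tested in the same way. In male H3K9me3 libraries 23 of 809 Olfr regions (2.84%) passed an unadjusted p of 0.05 with edgeR, 12 higher and 11 lower with ethanol, where 2.90% of all regions passed, 460 higher and 341 lower. In female libraries 34 of 640 (5.31%) passed, 23 higher and 11 lower, where 3.98% of all passed, 580 higher and 502 lower. In male H3K36me3 libraries 6 of 128 (4.69%) passed, 3 in each direction, where 5.69% of all passed, 197 higher and 228 lower. In female H3K36me3 libraries 6 of 136 (4.41%) passed, 5 higher and 1 lower, where 3.57% of all passed, 159 higher and 162 lower. The shares were near those of all regions, and by adjusted p 0 Olfr regions passed with edgeR or DESeq2 in any of the 4 comparisons. Without TMM scaling factors, which moves the median of all male H3K36me3 regions from 0.01 to 0.18, 9 male H3K36me3 regions passed (7.03%), 8 higher and 1 lower, where 8.94% of all regions passed, 638 higher and 30 lower. The fold changes of single regions are log2 ± SE by edgeR, at an unadjusted p of 0.05.

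The male H3K9me3 regions of smallest p lay near Olfr623, Olfr357, Olfr1118 and Olfr1049. The region near the class I gene Olfr623 (chr7:103648001-103654200) had 36.5, 40.7, 39.8, 32.0 and 36.1 CPM with water and 28.5, 31.5, 27.9, 30.9, 31.2 and 33.9 with ethanol (-0.27 ± 0.09, edgeR, adjusted p = 0.999), with an input change of -0.12 and a ratio change of -0.18. A single ethanol pool lay above the lowest water pool. Near Olfr357 (chr2:36975401-36987200) the groups did not overlap, with 77.6 to 85.0 CPM with water and 88.0 to 96.4 with ethanol (0.16 ± 0.05), and the input there changed by -0.0044 and the ratio by 0.17 on the log2 scale. The regions near Olfr1118 (chr2:87330601-87333200) and Olfr1049 (chr2:86246801-86253000) had log2 fold changes of 0.42 ± 0.14 and 0.37 ± 0.12, with input changes of 0.16 and 0.24 and ratio changes of 0.26 and 0.14.

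In females, the region overlapping Olfr855 (chr9:19585601-19593000) had 15.1, 18.5, 23, 35.2 and 25.8 CPM with water and 37.6, 42.6, 33.2, 30.0, 43.6 and 47.0 with ethanol (0.73 ± 0.19, edgeR, adjusted p = 0.999). Its input reads changed by 0.72 and the ratio by 0.01. Near Olfr1494 (chr19:13754801-13758800) the log2 fold change was 0.78 ± 0.24 with an input change of 0.72, and near Olfr169 (chr16:19576601-19579000) it was 0.59 ± 0.20 with an input change of 0.85 and a ratio change of -0.19. Near Olfr982 (chr9:40065001-40070200) the groups did not overlap, with 38.1 to 41.7 CPM with water and 27.4 to 36.6 with ethanol (-0.24 ± 0.08), an input change of -0.07 and a ratio change of -0.17. In the 3 regions with higher ChIP values, the input change was of similar size or larger, and its part in the result was not tested.

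Among male H3K36me3 regions the one near Olfr339 (chr2:36403601-36407600) had the smallest p, with 67.5 to 101 CPM in the water pools and 42.4 to 64.8 in the ethanol pools. The groups did not overlap (-0.58 ± 0.14, edgeR, adjusted p = 0.767), the input changed by -0.50 and the ratio by -0.05. Other male regions lay near Olfr592 (0.41 ± 0.15), Olfr951 (-0.37 ± 0.16) and Olfr497 (-0.45 ± 0.19), with input changes of 0.22, -0.18 and -0.43 and ratio changes of 0.16, -0.17 and 0.01. The ratio near Olfr497 thus had the opposite sign. In females the regions lay near Olfr1314 (0.36 ± 0.12), Olfr393 (0.58 ± 0.20), Olfr847 (0.43 ± 0.15) and Olfr1196 (-0.33 ± 0.13), with input changes of 0.12, 0.44, 0.51 and -0.24 and ratio changes of 0.24, 0.12, -0.12 and -0.09. The ratio near Olfr847 had the opposite sign. The Olfr951 and Olfr497 calls held in 8 and the Olfr1196 call in 9 of the 11 fits that left out a pool.

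Whether the response to ethanol differed between the sexes was tested as an interaction in edgeR over all 22 libraries. For H3K9me3, 24 of 615 Olfr regions (3.90%) passed an unadjusted p of 0.05, 18 with the larger value in females, where 3.60% of all regions passed, 402 of 793 with the larger value in females. For H3K36me3, 8 of 94 (8.51%) passed, 5 of them larger in females, where 5.89% of all passed, 157 of 338 larger in females. Without TMM factors, which moves the median of all regions by -0.20, 8 regions passed, all lower in females, of which 3 were among the first 8, and 506 of the 522 regions passing over the whole genome (9.09% of all) were also lower. By adjusted p 0 passed for either mark with edgeR or DESeq2. The H3K9me3 region near Olfr849 (chr9:19418601-19426800) had a difference of 0.56 ± 0.17 between the log2 effects, with -0.16 ± 0.07 in males and 0.39 ± 0.15 in females, and the region near Olfr623 had 0.37 ± 0.12. The same differences in the ratio to input were 0.32 and 0.29. The H3K36me3 region near Olfr53 (chr7:140653801-140656600) had 0.65 ± 0.20, with -0.28 ± 0.14 in males and 0.37 ± 0.15 in females, and the region near Olfr951 (chr9:39396601-39399800) had 0.66 ± 0.22. In the ratio to input these were 0.49 and 0.25.

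Between the sexes, averaged over treatments, 6 of 615 H3K9me3 Olfr regions (0.976%) passed an adjusted p of 0.05 with edgeR, all lower in females, where 4.20% of all regions passed. Over all regions 882 were higher and 42 lower in females. All regions here are those of the whole genome, sex chromosomes included, whereas the Olfr regions are autosomal. The 4.20% is thus not a like background, and the share over autosomal regions alone was not computed. For the ratio of ChIP to input, 0 of the 615 Olfr regions and 0 of all 22004 regions passed by limma's adjusted p, and 1321 of all 22004 passed an unadjusted p of 0.05. The region near Olfr481 (chr7:108071601-108077400) had 34.3 ± 6.42 CPM in females and 45.3 ± 4.42 in males (-0.40 ± 0.09, edgeR adjusted p = 0.0031), with an input change of -0.33 and a ratio change of -0.09. Near Olfr27 (chr9:39106201-39111000) the values were 22.3 ± 6.00 and 30.7 ± 3.75 (-0.46 ± 0.12, edgeR adjusted p = 0.0151), with an input change of -0.51 and a ratio change of 0.02. For H3K36me3, 0 of 94 Olfr regions passed by the adjusted p of edgeR or DESeq2, where 0.540% of all regions passed with edgeR. At an unadjusted p of 0.05 with edgeR, 6 of the 94 passed, where 5.87% of all regions did.

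The sexes also differed in the share of H3K9me3 island reads that fell in Olfr clusters, and this depended on the denominator. With all islands in the denominator, males had an RPM of 26083 to 28933 and females one of 19443 to 23870, with no overlap between 11 and 11 libraries. With only autosomal islands in the denominator the ranges were 27702 to 31289 in males and 23580 to 29709 in females and did overlap. Reads in islands of the sex chromosomes thus enter the first comparison. For H3K36me3 the ranges overlapped with either denominator.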

How the data were processed

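Chromatin from 22 pools was sequenced after precipitation of H3K9me3 and H3K36me3, and 44 island lists were used (66 samples in all, 22 of them inputs that enter only through the lists). Per the study's methods the authors trimmed H3K9me3 reads with CutAdapt, aligned them with Bowtie2 2.4.1 to GRCm38/mm10, removed reads in blacklisted regions or with several locations, and used SICER (window 200 bp, gap 400 bp for H3K9me3, 600 bp for H3K36me3 by the list names). The sources used here state no read filters for H3K36me3. Each deposited list gives ChIP read counts and input read counts per island, a p-value and q-value (FDR), and the fold ratio of ChIP to input scaled by the authors to library size.

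From these, the length covered by islands at FDR 0.01 or less, reads per 1000000 island reads (RPM) and the log2 ratio of ChIP to input (all listed islands) were computed. Regions were positions covered in at least 11 of 22 libraries and at least 200 bp long, and were tested where every library of the fit had a listed island. Counts were tested with edgeR 4.0.16 (quasi-likelihood, TMM, filterByExpr, R 4.3.3), separately by sex as in the study, with Benjamini-Hochberg adjustment over the whole table. Whole clusters were fitted with 500 kb bins. Library values were tested by permutation (Python 3.11.15, scipy 1.17.1). Alternatives were DESeq2 1.42.0, no TMM factors, no filter, log2 ratio to input with limma 3.58.1 (pseudocount 1), other FDR thresholds, 50 kb joining, each pool left out and a replicate block. Total reads per library were not used, so depth means reads in islands (1703000 to 14235444), which limits precision at single regions. The scripts were tested on simulated data. Pools are separate animals, and sample order was randomized before processing stages per the study's methods. Named clusters were the 6 largest, the 3 highest and lowest per mark, those at the definition threshold and up to 5 with the smallest p per comparison. Named regions were up to 4 per mark and sex and up to 2 for interaction and sex, by smallest p, and named genes the 6 most covered per mark. The members and lists were chosen with earlier results of these data known.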

Additional observations from a re-analysis of the deposited data

Results flagged for a closer look

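Of 32 groups of 5 or 6 libraries checked for a library standing apart from its group, 4 held one, and chance alone does so in about 1 of 20 groups. H3K9me3 male water replicate 3 had 27642 Olfr cluster reads per 1000000 island reads, with the nearest library of its group at 26863. H3K9me3 male ethanol replicate 2 had a log2 ratio to input of Olfr islands, relative to the rest of the autosomes, of 0.34, with the nearest at 0.30. H3K9me3 female ethanol replicate 6 had 23870 Olfr cluster reads per 1000000 island reads, with the nearest at 22825. H3K36me3 female water replicate 1 had 1.28% of Olfr gene body length covered, with the nearest at 0.529%.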

How the results depend on the processing

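The comparisons of Olfr clusters with other sequence kept their direction and call under the alternatives, except that H3K36me3 coverage minus that of the rest was -0.0297 points at FDR 1e-05 or less (permutation p = 0.772), that minus Vmn1r coverage was -0.148 at the same threshold (adjusted permutation p = 0.0599), and the H3K36me3 log2 difference from the rest was -0.00393 at FDR 0.01 or less (permutation p = 0.825). With 50 kb joining the Vmn2r set held only 1 cluster (5 genes, 0.249 Mb), so that alternative says little about Vmn2r clusters. The H3K9me3 male log2 effect was -0.00473 at FDR 0.01 or less and the female H3K36me3 coverage effect 0.314 with all listed islands. With pools left out, the male H3K9me3 effects ranged from -0.635 to 1.78 points of coverage and from -44.2 to 526 RPM, both lowest without male ethanol replicate 4, and the female log2 effect from -0.0118 to 0.0162 (-0.0118, -0.00100, -0.00640 and -0.00718 without female water replicates 3 and 4 and female ethanol replicates 1 and 6).

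Counts of called H3K9me3 regions became 14 of 540 tested (male, 2.59%, where 2.34% of all regions passed), 14 of 222 (female, 6.31%, where 2.98% passed) and 3 of 196 (interaction, 1.53%, where 2.73% passed) at FDR 0.01 or less, so fewer were called where fewer were tested, and 47 of 809 (male, 5.81%, where 5.48% passed) for the ratio to input. Those between the sexes became 10 with DESeq2 and 10 without TMM (1.63% each, where 4.52% and 4.25% of all regions, sex chromosomes included, passed). They became 3 at FDR 0.01 or less (1.53%, where 9.27% passed) and 0 for the ratio, where 0 of all 22004 regions passed. Called H3K9me3 clusters, of 40, became 2 (DESeq2) and 3 (ratio) in males, where 4.93% and 4.99% of all clusters and bins passed, and 2 (DESeq2), 2 (no TMM) and 5 (ratio) in females, where 7.04%, 4.56% and 4.85% passed. Female H3K36me3 regions became 0 at FDR 0.01 or less, where 1 was tested, and interaction regions 4 of 94 for the ratio, where 6.88% of all passed. Male H3K36me3 clusters became 1 of 37 (2.70%) at FDR 0.01 or less, where 0.629% of all passed, and 0 of 40 for the ratio, where 12.4% did. Female ones became 2 (DESeq2), 2 (no TMM), 0 (FDR 0.01 or less) and 0 (ratio), where 3.15%, 1.43%, 0.577% and 5.75% passed. Male, interaction and sex fits of H3K36me3 regions at FDR 0.01 or less had no region to test. The cause was not tested. With each pool left out, calls ranged for H3K9me3 regions from 18 to 26 (male), 26 to 52 (female, 52 without female water replicate 3), 16 to 33 (interaction) and 4 to 8 (sex), for H3K9me3 clusters from 0 to 2 (male) and 0 to 6 (female, 6 without female water replicate 3), for H3K36me3 regions from 4 to 8 (male), 4 to 11 (female, 11 without female ethanol replicate 3), 6 to 9 (interaction) and 0 to 0 (sex), and for H3K36me3 clusters from 7 to 18 (male) and 0 to 2 (female). For the fits with a pool left out, shares over all features are not given. Moves of the Olfr members there cannot be told apart from moves of the whole table. Of the named regions and clusters, 5 reversed for the ratio to input: chr1B -0.0302, Olfr169 -0.188, Olfr27 0.0246, Olfr497 0.0104 and Olfr847 -0.122. Elsewhere 123 of 165 values of named items kept direction and call under other settings and 368 of 396 with a pool left out.

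Replicate numbers did not pair the pools. The 20 correlations of same-numbered pools' deviations ran from -0.118 to 0.0722, and 2 of 20 pools correlated best with their own number. With the number as a replicate block, called H3K9me3 regions numbered 17 (male), 27 (female), 23 (interaction) and 3 (sex), H3K9me3 clusters 0 (male) and 2 (female), H3K36me3 regions 7, 5, 8 and 0, and H3K36me3 clusters 3 (male) and 0 (female). The shares over all features were 2.90%, 3.77%, 3.71% and 4.06% for H3K9me3 regions, 2.19% and 4.08% for H3K9me3 clusters and bins, and 5.81%, 3.32%, 6.51% and 0.505% for H3K36me3 regions. For H3K36me3 clusters and bins they were 9.40% (male) and 0.461% (female), so the 3 of 40 male clusters (7.5%) were then no larger a share than that of all.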
